A study of Drosophila melanogaster with 8 samples.

Results

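The mitosis and spindle genes described here are 40 named genes whose products carry Drosophila cells through mitosis. Of these, 29 had a probe set on the array that carried their symbol alone, out of 11983 genes measured, and 3 of the 29 lie on X (fzr, Klp10A and feo) and 26 on autosomes. Each gene was read by 1 probe set, the one with the highest mean over all 8 arrays. The other 11 listed genes (polo, aurA, Cdk1, CycA, stg, BubR1, Klp3A, pav, asp, sti and cnn) were not analysed here.

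Total RNA of Kc cells, an embryonic Drosophila line of female origin, was hybridised to 8 Affymetrix expression arrays after treatment with double-stranded RNA. The groups were cells given double-stranded RNA against GFP as the negative control (GFP RNAi, n = 3), against Sxl (Sxl RNAi, n = 3), or against both Sxl and msl-2 (labelled Sxl and Msl2 RNAi, n = 2). All arrays come from this 1 line, the duration of treatment is not given in the sources used here, and the labels do not say that replicates were separate cultures, so p-values reflect the spread among these arrays alone, which could be technical. The labels tie each knockdown array to 1 GFP array as its background control, which makes 3 control sets. The first replicate of GFP RNAi goes with the second of Sxl RNAi and the first of the double treatment (set 1), the second of GFP RNAi with the first of Sxl RNAi (set 2), and the third of GFP RNAi with the third of Sxl RNAi and the second of the double treatment (set 3). The question of the design was how transcripts change when SXL, which blocks translation of msl-2 RNA in females, is depleted, and which of those changes need MSL2, the subunit that lets the MSL dosage compensation complex assemble on X.

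Mitosis is driven by Cdk1 bound to its cyclins, which is switched on by Cdc25 phosphatases and switched off when the anaphase-promoting complex (APC/C) marks cyclins and securin for destruction. Kinesin motors build the spindle, the spindle checkpoint holds the APC/C back until every kinetochore is attached, condensin compacts the chromosomes, and the chromosomal passenger complex and central spindle proteins direct division of the cytoplasm. Many of these transcripts peak in the G2 and M phases of dividing cells, so that in bulk RNA a larger share of cells in mitosis and more RNA per mitotic cell cannot be told apart.

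All values below are log2 RMA values as deposited, and differences are log2 differences fitted by limma with group and control set as terms, given ± SE, with p-values adjusted for all 11983 genes after Benjamini and Hochberg. The values of single arrays are listed in the order of their replicate numbers. A gene was called when its adjusted p was under 0.05. The median of the gene means, 5.24, served as an expression limit, and all 29 mitotic genes were among the 5991 genes above it. The spread within their GFP group was of the order of the differences: the GFP arrays of a gene spanned a median of 0.22, and this span was larger than the difference between Sxl RNAi and GFP RNAi in 23 of the 29 genes. Within control sets the values were tighter, with a median residual SD of 0.0705 for the mitotic genes and 0.0868 for all genes above the limit.

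Among facts of the series that touch these genes, msl-2 had a mean of 4.84, below the expression limit. Its GFP values of 4.32, 4.47 and 4.51 lay near the medians of the arrays, so no fold is given for it. It rose after Sxl RNAi (log2 difference 1.28 ± 0.13, limma adjusted p = 0.000551), to 6.19, 5.33 and 5.61, and was at 4.16 and 4.13 in the arrays labelled Sxl and Msl2 RNAi, below all 3 GFP arrays. The brightest Sxl probe set gave -0.51 ± 0.17 after Sxl RNAi (limma adjusted p = 0.0935) and -0.05 ± 0.20 in the double treatment. A second Sxl probe set, with a mean of 6.47, was called lower after Sxl RNAi in a fit over all probe sets (-0.64, limma adjusted p = 0.0373) and was at -0.43 in the double treatment (limma adjusted p = 0.31). Groups are called by their labels throughout. The set 2 arrays stood apart from the others, at correlations of 0.936 to 0.953 over genes above the limit against 0.968 or more among the other arrays, so results are also given by set. Of 12 hemocyte lineage markers, the lineage to which Kc cells belong, 11 were above the limit. After Sxl RNAi 4 of the 12 changed (1 rose and 3 fell), beside 19.2% of genes above the limit. The mean level of the 12 markers was 8.50 to 8.80 in GFP RNAi, 8.24 to 8.68 in Sxl RNAi and 8.43 to 8.44 in Sxl and Msl2 RNAi. This mean hides opposite moves of single markers in set 2. With GFP RNAi, Col4a1 was at 9.92, 5.70 and 9.83, and He at 8.04, 10.56 and 7.78. Fewer markers of other types were above the limit: 2 of 8 for crystal cells and lamellocytes, 2 of 4 for neurons, 1 of 4 for muscle and 1 of 7 for germ line and testis. The last, bam, was at 7.79 and 7.43 in the set 2 arrays and at 4.51 to 4.85 in the others. The part of these differences in the results below was not tested.

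After Sxl RNAi the mitotic genes moved little, and 2 of the 3 genes that rose were X-linked. Against GFP RNAi, 3 of the 29 genes rose, feo, fzr and twe, and none fell, beside 5.98% of all genes called higher and 4.35% called lower, or 11.3% and 7.9% of genes above the limit. At an unadjusted p under 0.05, 6 of the 29 genes were higher and 1 lower, beside 18.6% and 18.7% of genes above the limit. The adjusted calls rested on the control set as a fixed term: limma called 0 of the 29 genes without it, in this comparison and with both RNAs, and 0 with the control set as a random block. The limma adjusted p in the latter fit was 0.117 for feo, 0.112 for fzr and 0.0978 for twe. The median difference over the 29 genes was 0.05, with 20 genes above 0 and a range from -0.24 (SAK) to 0.50 (feo). Leaving out 1 array gave medians of 0.0097 (without GFP replicate 1) to 0.0747 (without GFP replicate 3). The 3 X-linked genes had a median of 0.46 and 2 of them were called, where 41% of X genes above the limit were called higher at a median of 0.23. The 26 autosomal genes had a median of 0.04 and 1 of them was called higher, or 3.85%, where 4.99% of autosomal genes above the limit were called higher and 9.26% lower at a median of -0.05. Among the 26 autosomal genes 65.4% were above 0, beside 37.2% of autosomal genes above the limit.

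The gene with the largest difference was feo (fascetto, on X), which encodes the PRC1-type protein that bundles antiparallel microtubules in the central spindle. Its values were 10.45, 9.85 and 10.63 with GFP RNAi, 10.35, 11.06 and 11.02 with Sxl RNAi, and 10.62 and 10.78 with both RNAs. The Sxl RNAi and GFP groups overlapped, because both set 2 arrays were low, but within each set the Sxl RNAi array was the higher. The rise was 1.42-fold (0.50 ± 0.07, limma adjusted p = 0.00288), at 0.61, 0.50 and 0.39 in sets 1, 2 and 3. With both RNAs it was 0.16 ± 0.09 above GFP RNAi (limma adjusted p = 0.403). The difference of Sxl RNAi from the double treatment was 0.34 ± 0.09 and did not pass the threshold (limma adjusted p = 0.145, 95% interval 0.15 to 0.53). The call of the rise remained without any 1 array (limma adjusted p from 0.00729 to 0.0237).

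The other X-linked gene that rose was fzr (fizzy-related), the Cdh1 activator that keeps the APC/C active at the end of mitosis and in G1. It was at 7.04, 7.52 and 7.58 with GFP RNAi, 8.19, 7.44 and 7.89 with Sxl RNAi, and 7.48 and 7.73 with both RNAs. Here too the groups overlapped and every set gave a higher Sxl RNAi array. The rise was 1.37-fold (0.46 ± 0.09, limma adjusted p = 0.013), at 0.40, 0.67 and 0.30 in sets 1, 2 and 3. The double treatment gave 0.35 ± 0.11 (limma adjusted p = 0.115), and Sxl RNAi against it 0.11 ± 0.11 (limma adjusted p = 0.785). The call was lost without GFP replicate 1 (0.45, limma adjusted p = 0.0679) and without GFP replicate 2 or Sxl RNAi replicate 1, the 2 arrays of set 2 (0.35, limma adjusted p = 0.061).

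Klp10A, the X-linked gene of a kinesin-13 that depolymerises spindle microtubules, was at 9.82, 9.24 and 9.47 with GFP RNAi, 9.65, 10.05 and 9.63 with Sxl RNAi, and 9.81 and 9.67 with both RNAs. It was higher in the Sxl RNAi array of each set (0.23, 0.41 and 0.16 in sets 1, 2 and 3), although the groups overlapped. The fitted difference was 0.27 ± 0.08 after Sxl RNAi (limma adjusted p = 0.0778) and 0.13 ± 0.10 with both RNAs (limma adjusted p = 0.589). Sxl RNAi against the double treatment gave 0.14 ± 0.10 (limma adjusted p = 0.667). The probe sets of fzr and Klp10A are of a design that can also read related transcripts; whether they did was not tested.

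The autosomal gene that rose was twe (twine, on 2L), a Cdc25 phosphatase known for its role in meiosis. It was close to the expression limit, at 4.99, 5.24 and 5.28 with GFP RNAi, 5.59, 5.31 and 5.50 with Sxl RNAi, and 5.15 and 5.53 with both RNAs. Every Sxl RNAi value lay above every GFP value. The rise was 1.23-fold (0.30 ± 0.07, limma adjusted p = 0.0278), and 0.22 ± 0.08 was measured with both RNAs (limma adjusted p = 0.207). Sxl RNAi against the double treatment gave 0.08 ± 0.08 (limma adjusted p = 0.8). The call was lost without GFP replicate 1 (limma adjusted p = 0.106), GFP replicate 3 (0.081), Sxl RNAi replicate 2 (0.149), Sxl RNAi replicate 3 (0.0593) or either array of set 2 (0.105), at differences of 0.27 to 0.35.

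**Figure D1:**
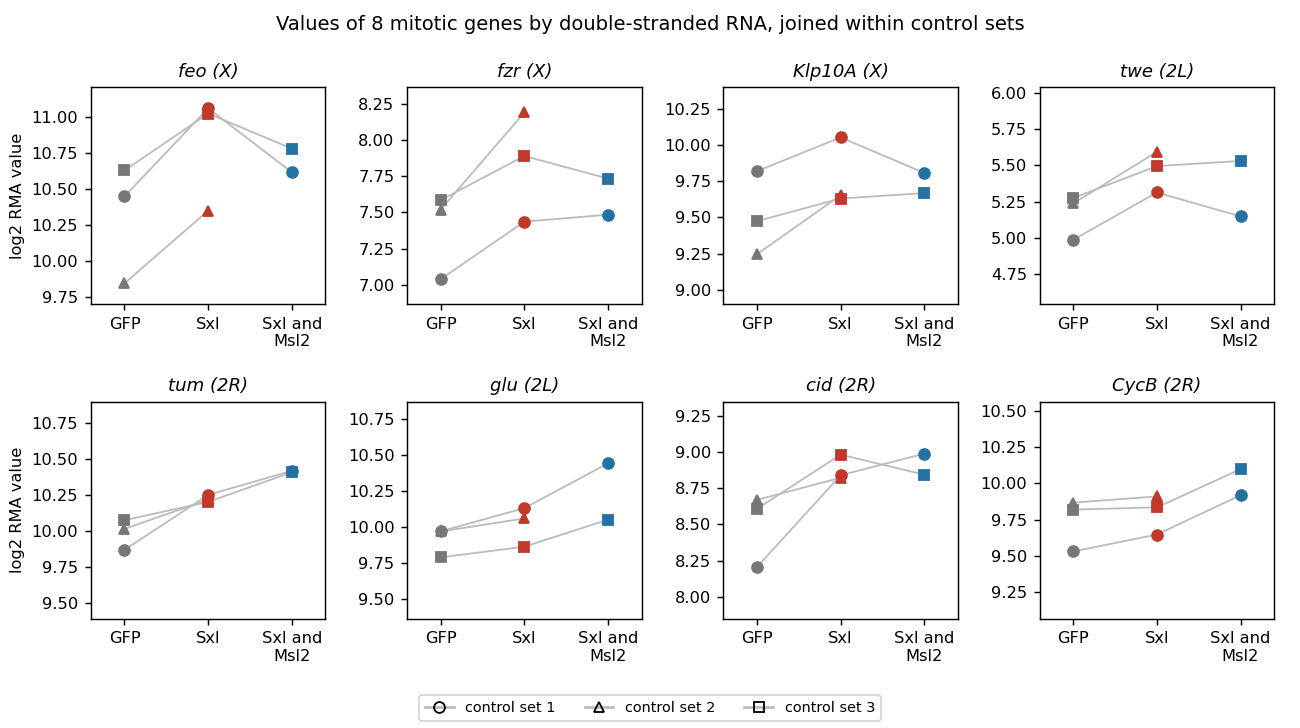
log2 RMA values (vertical axis, 1.5 log2 units in every panel) of 8 mitotic genes by double-stranded RNA (horizontal axis), 1 point per array, with marker shape and grey lines for the control sets. The X-linked genes feo, fzr and Klp10A were higher in Sxl RNAi than in the GFP array of the same set in all 3 sets, while tum, glu and CycB were highest in the arrays labelled Sxl and Msl2 RNAi within each set that has one.

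The autosomal genes had differences from -0.24 to 0.39 after Sxl RNAi. The 95% interval of the difference lay within 0.5 of 0 for 25 of the 26 autosomal genes, the exception being cid. That bound also takes in the called gene twe, so it does not exclude rises of that size. Genes of the Cdk1 and passenger kinases were between -0.09 and 0.08: the B-type cyclin genes CycB (0.06 ± 0.07) and CycB3 (-0.09 ± 0.09), aurB, the Aurora B kinase of the passenger complex (0.08 ± 0.10), its scaffold Incenp (0.04 ± 0.07) and borr, which encodes borealin (0.05 ± 0.07). The spindle checkpoint genes were all slightly below 0, with Bub1 at -0.12 ± 0.07, Bub3 at -0.11 ± 0.07 and Mps1 at -0.10 ± 0.08, and none was called. The APC/C activator fzy (Cdc20), the securin gene pim and thr, whose product works with separase, lay between 0.04 and 0.06. Other spindle and cytokinesis genes were also near 0, at 0.09 for the kinesin-5 gene Klp61F, 0.06 for the kinesin-14 gene ncd, -0.05 for the spindle protein gene mars and 0.00 for scra, which encodes anillin. Condensin subunits ranged from -0.08 (Cap-G) to 0.11 (glu), with barr at 0.03 and SMC2 at 0.07. Among centriole duplication genes, SAK, the Plk4 kinase, was at -0.24 ± 0.10 (limma adjusted p = 0.178), Sas-4 at -0.12, Sas-6 at -0.07 and ana2 at 0.17. SAK was close to the expression limit, at a mean of 5.40, and its GFP values of 5.47, 4.88 and 6.01 spanned 1.13.

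The Sxl RNAi arrays lay wholly above the GFP arrays for 3 of the 29 genes (twe, tum and cid) and wholly below for 2 (Bub3 and Cap-G), beside 7.69% and 9.16% of genes above the limit. Of these 5 genes only twe was called. Among the others, cid, which encodes the centromeric histone CENP-A, was at 8.21, 8.67 and 8.61 with GFP RNAi, 8.82, 8.84 and 8.98 with Sxl RNAi, and 8.99 and 8.84 with both RNAs. Both knockdown groups lay above all GFP arrays, and GFP replicate 1 was the lowest by a wide margin. The differences were 0.39 ± 0.11 after Sxl RNAi (limma adjusted p = 0.0587) and 0.45 ± 0.13 with both RNAs (limma adjusted p = 0.0984). The first passed without either array of set 2 (0.50, limma adjusted p = 0.0419) or without either array labelled Sxl and Msl2 RNAi (0.39, limma adjusted p = 0.0489), and without GFP replicate 1 the difference was 0.23 (limma adjusted p = 0.257). With both RNAs the difference was 0.26 without GFP replicate 1, and 0.24 and 0.66 without Sxl and Msl2 RNAi replicate 1 and 2 (limma adjusted p = 0.422, 0.572 and 0.126).

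**Figure D2:**
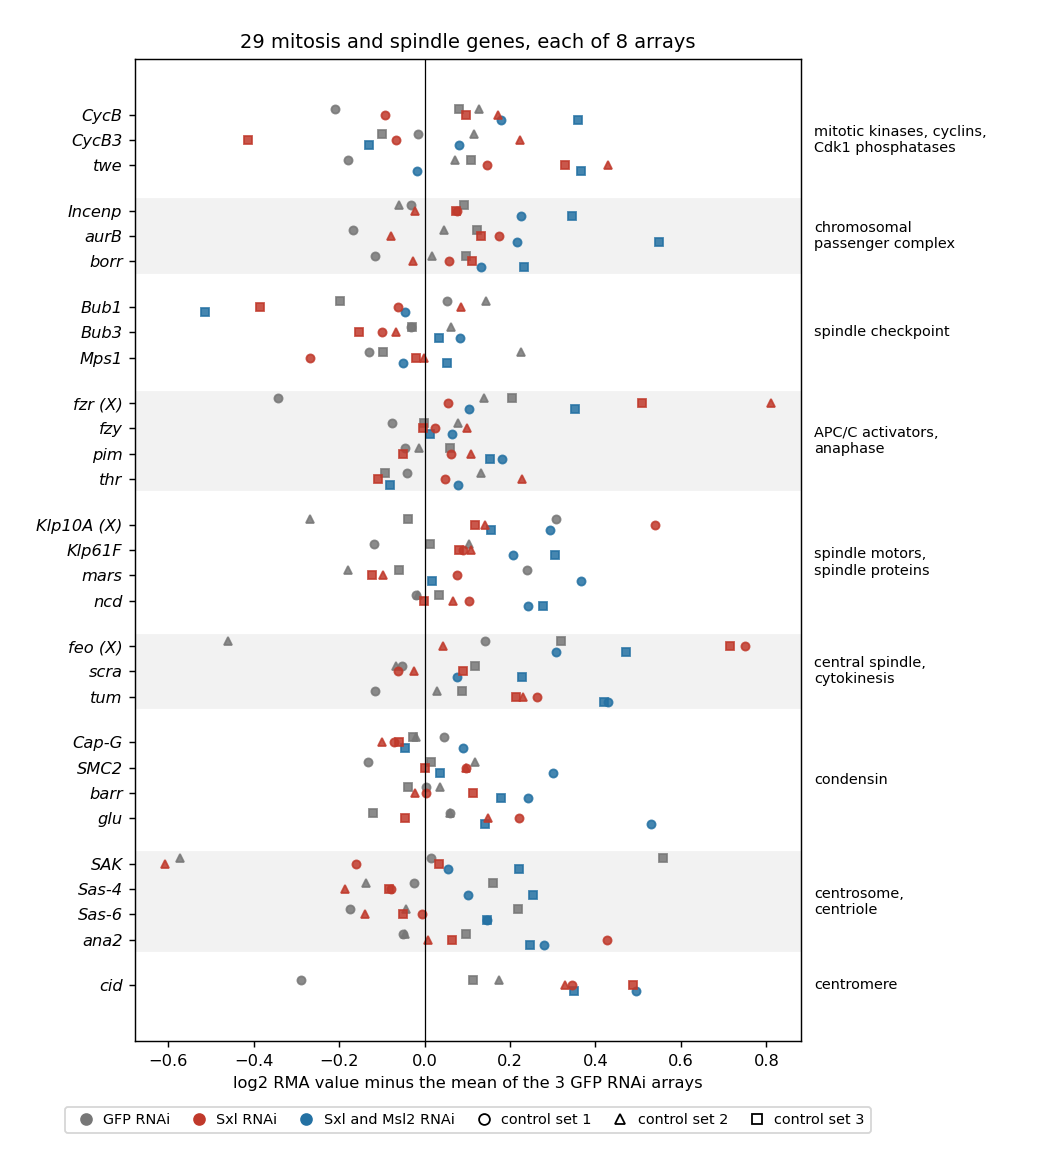
log2 RMA value of each of 29 mitosis and spindle genes in each of 8 arrays, minus the mean of the 3 GFP RNAi arrays of the gene (horizontal axis), grouped by role, with colour for the treatment and shape for the control set. Blue points (Sxl and Msl2 RNAi) lie to the right of the GFP mean in most genes. They lie wholly above all 3 GFP arrays in 12 of 29, or 41.4%, beside 13.9% of genes above the limit. The red points (Sxl RNAi) lie wholly above all 3 GFP arrays in twe, tum and cid and wholly below them in Bub3 and Cap-G.

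Per control pair, the X-linked median lay above the autosomal one in each set. The fitted difference after Sxl RNAi is the mean of the 3 pair differences, so these values are not a second test. The 3 X-linked genes were all above their GFP array in every set, with medians of 0.40, 0.50 and 0.30 in sets 1, 2 and 3, where all X genes above the limit had medians of 0.26, 0.27 and 0.18. The autosomal mitotic genes had medians of 0.11, 0.03 and -0.02 in sets 1, 2 and 3, where all autosomal genes above the limit had -0.03, -0.06 and -0.07. The 26 genes were thus divided within each set, with 17, 15 and 10 of them above 0. Of the 4927 autosomal genes above the limit, 2189, 1810 and 1766 were above 0. Over all 29 genes, 9 were higher in all 3 sets and 5 were lower in all 3, and the autosomal genes that were higher in all sets made up 23.1%, beside 16.5% of autosomal genes above the limit.

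With double-stranded RNA against both Sxl and msl-2, most mitotic genes lay somewhat above GFP RNAi, on autosomes as on X, though few passed the test. Of the 29 genes, 2 rose, tum and glu, and none fell, beside 2.19% of all genes called higher and 1.6% called lower, or 4.19% and 2.87% of genes above the limit. With the control set as a random block neither was called (limma adjusted p = 0.0602 for tum and 0.157 for glu). At an unadjusted p under 0.05, 11 of the 29 genes were higher and none lower, beside 15.4% and 11.7% of genes above the limit. The median was 0.17 and 27 of 29 genes, or 93.1%, were above 0. Among the autosomal genes 92.3% were above 0, where 48% of autosomal genes above the limit were. The autosomal median was 0.18 and the X-linked median 0.16, beside -0.01 and 0.06 for all autosomal and all X genes above the limit. No X-linked mitotic gene was called, where 9.55% of X genes above the limit were called higher, and 2 of 26 autosomal ones were (7.69%), where 3.06% of autosomal genes were. Both knockdowns were compared with the same GFP arrays, so the 2 sets of differences are not independent.

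The first of the 2 genes that rose, tum (tumbleweed, on 2R), encodes the RacGAP subunit of centralspindlin, which acts with feo's product at the central spindle. It was at 9.87, 10.02 and 10.08 with GFP RNAi, 10.22, 10.25 and 10.20 with Sxl RNAi, and 10.42 and 10.41 with both RNAs. The 3 groups did not overlap, with GFP RNAi the lowest and the double treatment the highest. The rise with both RNAs was 1.35-fold (0.43 ± 0.09, limma adjusted p = 0.0294). Sxl RNAi gave 0.24 ± 0.08 against GFP RNAi (limma adjusted p = 0.0842) and -0.19 ± 0.09 against the double treatment (limma adjusted p = 0.482). The call was lost without GFP replicate 1 (0.34, limma adjusted p = 0.188), GFP replicate 3 (0.50, 0.0572), Sxl RNAi replicate 3 (0.42, 0.0561), or Sxl and Msl2 RNAi replicate 1 (0.39, 0.262) or 2 (0.48, 0.162). Leaving out either of these last 2 arrays leaves a single array in that group, assumed to vary like the other groups.

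The second, glu (gluon, on 2L), encodes the SMC4 subunit of condensin. It was at 9.97, 9.97 and 9.79 with GFP RNAi, 10.06, 10.13 and 9.86 with Sxl RNAi, and 10.44 and 10.05 with both RNAs. Both arrays of the double treatment lay above the GFP arrays, and the array of set 1 lay above all others. The rise was 1.28-fold (0.36 ± 0.08, limma adjusted p = 0.0472), at 0.47 in set 1 and 0.26 in set 3, with 0.11 ± 0.07 after Sxl RNAi (limma adjusted p = 0.449). Sxl RNAi against the double treatment gave -0.25 ± 0.08 (limma adjusted p = 0.295). The adjusted p lay just under the threshold and the call was lost without any 1 of the 8 arrays (differences 0.28 to 0.44, limma adjusted p from 0.0553 to 0.356).

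Other genes with small and similar differences made up the shift. The largest after cid and tum were glu, aurB at 0.36 ± 0.11 (limma adjusted p = 0.131), fzr, CycB at 0.33 ± 0.08 (limma adjusted p = 0.0532) and Klp61F at 0.29 ± 0.08 (limma adjusted p = 0.101). CycB was at 9.53, 9.87 and 9.82 with GFP RNAi, 9.91, 9.65 and 9.83 with Sxl RNAi, and 9.92 and 10.10 with both RNAs. Both double arrays were above every other array for this gene, 1 of them by a narrow margin over Sxl RNAi replicate 1. All 3 measured genes of the chromosomal passenger complex were higher in both double arrays than in any GFP array, with Incenp at 0.25 ± 0.08 and borr at 0.17 ± 0.08 beside aurB, and none of them was called. aurB alone passed in 1 fit that left out an array, that without Sxl RNAi replicate 2 (0.39, limma adjusted p = 0.0445). The motor gene ncd gave 0.26 ± 0.08 and mars 0.13 ± 0.09. In condensin, barr and SMC2 were both at 0.21, while Cap-G was at 0.01 ± 0.08. The anaphase genes were lower on this scale, at 0.18 for pim and 0.07 for each of fzy and thr. Centriole genes were at 0.21 (ana2), 0.13 (Sas-4), 0.12 (Sas-6) and -0.10 (SAK), and scra was at 0.13. The checkpoint genes were closer to 0 or below it: Bub3 and Mps1 were each at 0.08, as was the cyclin gene CycB3, and Bub1 was the lowest of the 29 at -0.19 ± 0.09 (limma adjusted p = 0.298).

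The 2 double arrays lay wholly above the 3 GFP arrays for 12 of the 29 genes, or 41.4%, beside 13.9% of genes above the limit, and wholly below for none. By set, the median over the 29 genes was 0.23 in set 1 with 27 genes above 0, and 0.15 in set 3 with 24 above 0, where autosomal genes above the limit had medians of 0.03 and -0.04. In both sets together 21 of 26 autosomal mitotic genes (80.8%) were above GFP RNAi, beside 33.3% of autosomal genes above the limit. GFP replicate 1 was the lowest of the 8 arrays for 13 of the 29 genes, and the share of all genes lowest in that array was not counted. All autosomal genes above the limit had a median of -0.05 in that array relative to the GFP mean, as did the mitotic genes. Leaving out any 1 array kept the median over the mitotic genes between 0.13 and 0.20, with 26 to 28 genes above 0.

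**Figure D3:**
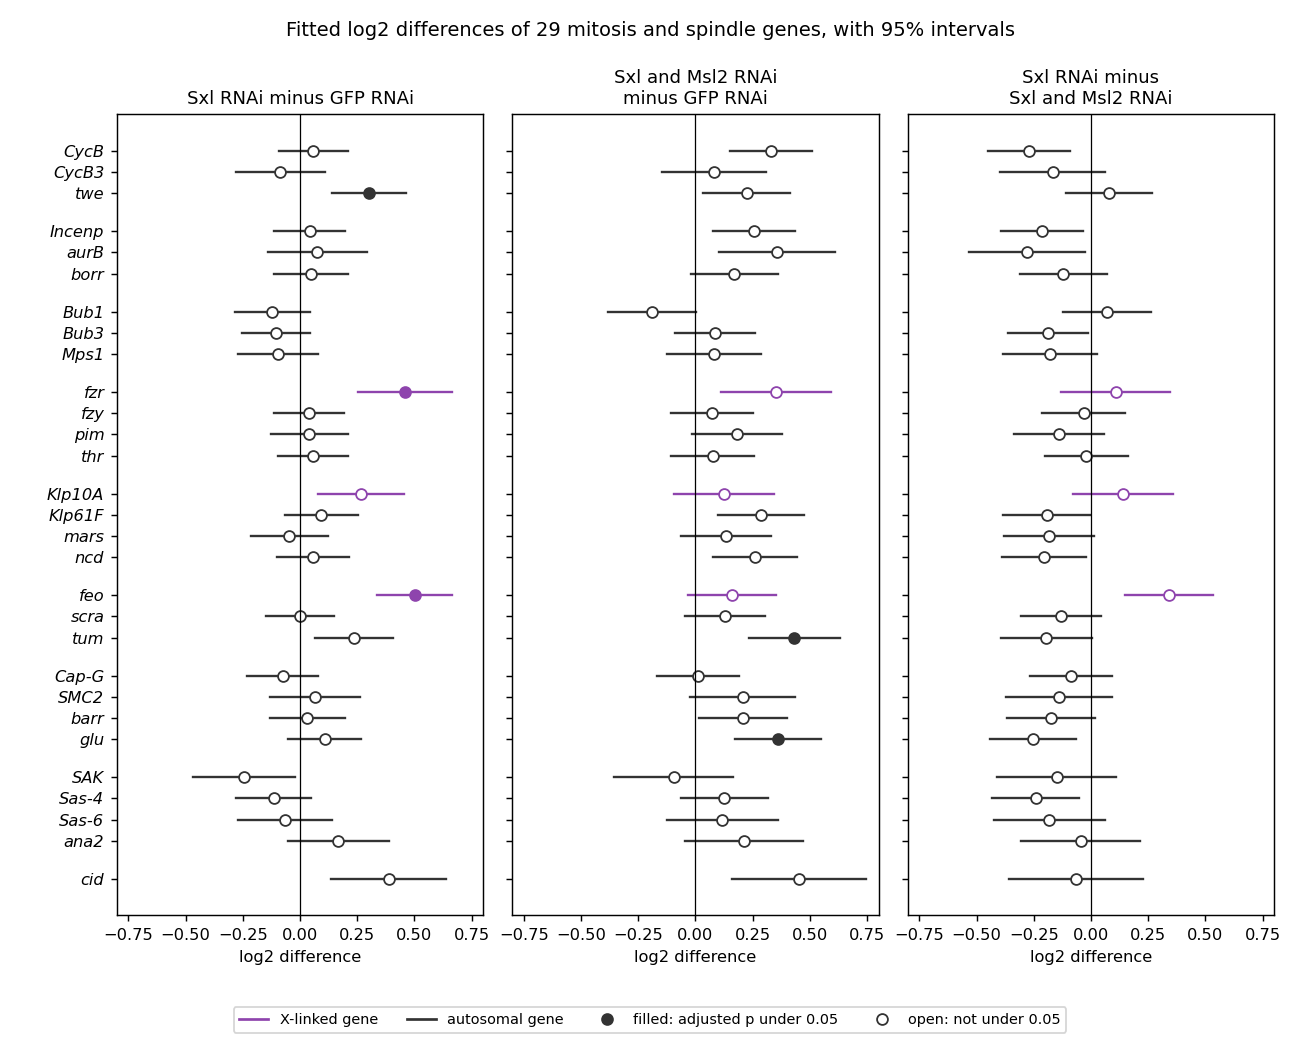
Fitted log2 differences (horizontal axis) of 29 mitosis and spindle genes in 3 comparisons, with lines for 95% intervals, purple for X-linked and black for autosomal genes, and filled points for a limma adjusted p under 0.05. After Sxl RNAi feo, fzr and twe are filled, with both RNAs tum and glu, and in Sxl RNAi against the double treatment no gene is filled, with the 3 X-linked genes right of 0 and 24 of 26 autosomal genes left of it.

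Set directly against each other, Sxl RNAi and the double treatment gave no called mitotic gene in either direction by limma, beside 0.743% of all genes called higher and 0.0334% called lower in Sxl RNAi, and 6.4% of X genes above the limit called higher. At an unadjusted p under 0.05, 1 gene was higher (feo) and 8 were lower, beside 9.41% and 7.19% of genes above the limit. The X-linked genes had a median of 0.14, as X genes above the limit did, and the autosomal mitotic genes one of -0.17, where autosomal genes above the limit had -0.05. Of the X-linked genes only feo was higher in Sxl RNAi in both sets. The sign changed between sets for fzr (-0.05 in set 1 and 0.16 in set 3) and Klp10A (0.25 and -0.04). The lowest in the fit to all arrays were aurB (-0.28 ± 0.11, limma adjusted p = 0.415), CycB (-0.27 ± 0.08, limma adjusted p = 0.222), glu, and the centriole gene Sas-4 (-0.24 ± 0.09, limma adjusted p = 0.327). For aurB the difference was -0.45 without Sxl RNAi replicate 2 and -0.18 without Sxl and Msl2 RNAi replicate 2. Both double arrays lay above all Sxl RNAi arrays for 14 of the 29 genes, or 48.3%, beside 9.33% of genes above the limit. Within sets, 22 of the 26 autosomal mitotic genes (84.6%) were lower in Sxl RNAi than in the double treatment in both sets, beside 43.8% of autosomal genes above the limit. The array with the double treatment was above both the GFP and the Sxl RNAi array of its set, in both sets, for 18 autosomal mitotic genes (69.2%), beside 18.6% of autosomal genes above the limit. These counts share arrays and genes that vary together, and no test was made of them.

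Of the wider mitotic machinery, 98 other genes in 8 lists were measured, 19 of them on X. After Sxl RNAi 11 of them (11.2%) rose and 4 (4.08%) fell, near or below the shares of 11.3% and 7.9% among genes above the limit, with a median of -0.05, and 10 of those that rose were X-linked. The 19 X-linked genes had a median of 0.29 with 10 called higher (52.6%), where 41% of X genes above the limit were, and the 79 autosomal ones a median of -0.07 with 1 higher and 4 lower. X-linked genes that rose included APC7, an APC/C subunit (1.13 ± 0.15, limma adjusted p = 0.00214), wapl, which releases cohesin from chromosomes (0.93 ± 0.11, limma adjusted p = 0.00124), the cohesin subunit gene SMC3 (0.36 ± 0.08, limma adjusted p = 0.0201), and mud, which orients the spindle (0.50 ± 0.08, limma adjusted p = 0.0036). Also higher were the spindle gene mei-38 (0.51), the centriole gene Cp110 (0.56), the gamma-tubulin ring gene Grip91 (0.32) and the kinetochore genes Kmn1 (0.36), Ndc80 (0.30) and Zw10 (0.27). The autosomal genes that changed were Cdk2, which rose (0.27 ± 0.08, limma adjusted p = 0.0497), and mr, an APC/C subunit, Spindly, gwl (Greatwall kinase) and Cks30A, which fell by 0.28, 0.28, 0.29 and 0.32. Cdk2 was in the list of mitotic entry and exit regulators, although it is known for its role in S phase.

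By list after Sxl RNAi, 1 of 9 core APC/C genes rose and 1 fell, 3 of 15 kinetochore genes rose and 1 fell, and 2 of 10 cohesin genes rose. None of 3 other condensin genes and none of 12 other cytokinesis genes was called. In the centrosome list 2 of 20 rose, in the list of other spindle motors and microtubule proteins 2 of 15, and among mitotic entry and exit regulators 1 of 14 rose and 2 fell. Among genes above the limit 11.3% were called higher and 7.9% lower, and among X genes above it 41% were called higher. Every gene that rose in these lists was X-linked except Cdk2, so the counts describe X-linked genes more than any 1 list. APC7 rested on widely spread arrays, at 7.30, 4.38 and 7.77 with GFP RNAi and 6.11, 8.11 and 8.62 with Sxl RNAi, with both low values in set 2.

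With both RNAs, 6 of the 98 genes (6.12%) rose and 3 (3.06%) fell, beside 4.19% and 2.87% of genes above the limit, with a median of 0.02, beside 0.17 for the 29 genes. Those that rose were mud (0.52), Cp110 (0.53), Cdk2 (0.50), eco, a cohesin acetyltransferase gene (0.45), Cap-H2 of condensin II (0.43), and pbl, the RhoGEF partner of tum's product in cytokinesis (0.42 ± 0.09, limma adjusted p = 0.0334). The 79 autosomal genes had a median of 0.01, with 42 of them above 0. No test was made of the difference from the 29 genes. Those that fell were Map205 (-0.48 ± 0.11, limma adjusted p = 0.0468), a microtubule-binding protein gene, and 2 genes that were low in the arrays labelled Sxl and Msl2 RNAi but not in Sxl RNAi, Cep97 and Sep2. Sep2, a septin gene, was at 10.77, 10.61 and 10.71 with GFP RNAi, 10.61, 10.77 and 10.55 with Sxl RNAi, and 9.73 and 9.54 with both RNAs. It fell by 1.09 (log2, SE 0.08, limma adjusted p = 0.000629), and Sxl RNAi was above the double treatment by 1.04 ± 0.08 (limma adjusted p = 0.00134). Sep2 and Cep97, a centriole gene (1.25 ± 0.19, limma adjusted p = 0.0201), were the 2 genes of the 98 called in Sxl RNAi against the double treatment. They made up 2.04%, beside 1.52% of genes above the limit. Cep97 was at 5.67, 5.73 and 5.96 with GFP RNAi, and 5.37, 5.78 and 5.75 with Sxl RNAi. With both RNAs it was at 3.97 and 4.97, 2 values that lay far apart and below the expression limit of 5.24.

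**Figure D4:**
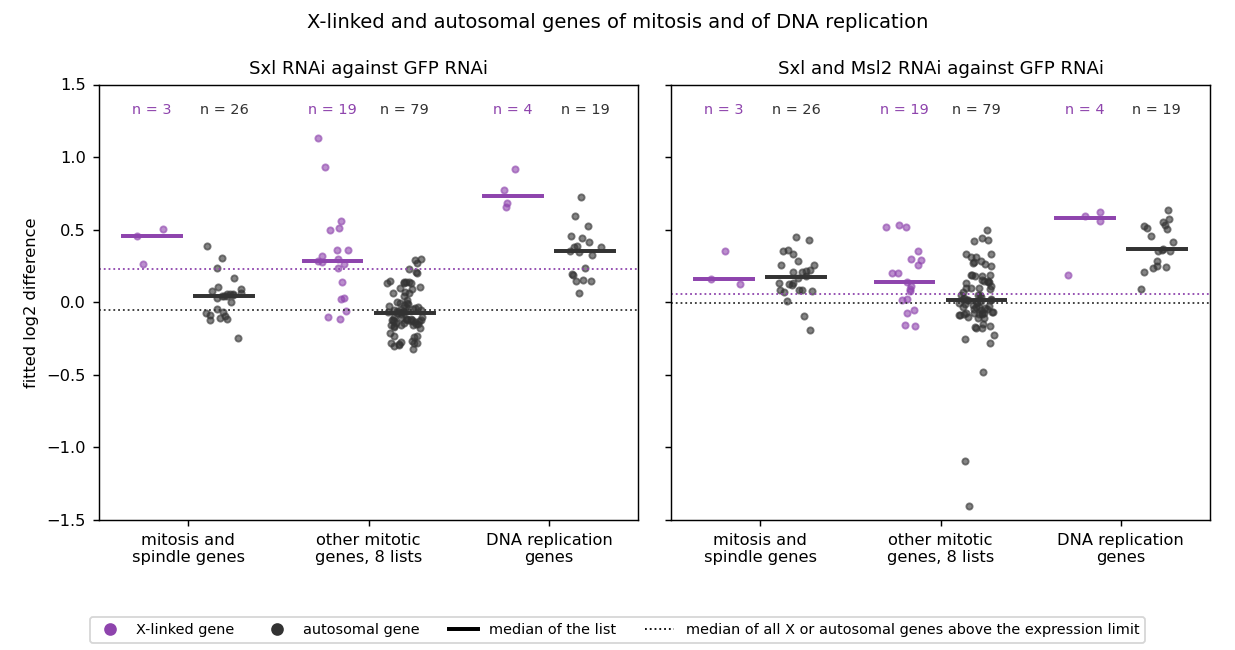
Fitted log2 differences (vertical axis) of each X-linked (purple) and autosomal (black) gene of the mitosis and spindle genes, 98 other mitotic genes and 23 DNA replication genes, for both knockdowns against GFP RNAi, with bars for list medians and dotted lines for the medians of all X and all autosomal genes above the expression limit. Autosomal mitotic genes sit near 0 after Sxl RNAi (median 0.04) and at 0.18 with both RNAs, while autosomal DNA replication genes sit at 0.35 and 0.37.

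DNA replication genes, which act in S phase, were set beside the mitotic genes as the nearest other part of the division cycle. After Sxl RNAi 15 of 23 replication genes (65.2%) rose and none fell, at a median of 0.38, beside 11.3% and 7.9% of genes above the limit. Of the 19 autosomal ones 11 rose (57.9%), beside 4.99% of autosomal genes above the limit. These calls too come from the fit with the control set as a fixed term. With both RNAs 9 of 23 (39.1%) rose at a median of 0.42, beside 4.19% of genes above the limit. In Sxl RNAi against the double treatment none was called, at a median of -0.03. The leading genes after Sxl RNAi were both X-linked, Cdc45 (0.92 ± 0.09, limma adjusted p = 0.000562) and the helicase gene Mcm6 (0.77 ± 0.09, limma adjusted p = 0.000858), and the leading autosomal gene was the origin recognition gene Orc1 (0.73 ± 0.12, limma adjusted p = 0.00519). Replication genes on autosomes thus had medians of 0.35 and 0.37 in the 2 knockdowns against GFP RNAi, and autosomal mitotic genes 0.04 and 0.18. No test was made of the difference between the lists.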

How the data were processed

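The authors hybridised total RNA of 8 Kc cell samples to Affymetrix Drosophila arrays and deposited log2 values per probe set made by RMA, which corrects background, normalises across arrays and summarises probes. No source used here gives the RMA version or settings. Such normalisation makes every change relative to other genes. Array medians were 4.40 to 4.46. Precision is limited by the number of arrays.

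Of 18952 probe sets, 183 controls, 402 with several symbols and 4720 without one were left out. The brightest probe set stood for each of 11983 genes, with chromosome arms from a RefSeq gene table. limma 3.58.1 (lmFit, eBayes) in R 4.3.3 was fitted to the 8 arrays together, with terms for group and for control set (3 residual and 6.53 prior degrees of freedom). It was run on data simulated from this same model. That run cannot bear on the choice of the control set as a fixed term. Arrays of a control set deviated from their group means together (r = 0.376 to 0.893), those sharing only a title number did not (-0.738 to 0.0767). Deviations sum to 0 within a group, so the second range is not independent of the first. The 2 dimmer fzy probe sets and 1 shared between fzr and BaraC gave no call. Values of all arrays are given for called and X-linked members and for cid and CycB, the latter 2 chosen after their values were seen. Up to 3 called genes were to be named per list, and others called in the mitotic lists are named as well. Members and lists were chosen with earlier results of these data known.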

Additional observations from a re-analysis of the deposited data

How the results depend on the processing

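The number of mitotic genes called higher after Sxl RNAi was 3, and the number with both RNAs 2. These counts rested on the control set as a fixed term. They were 0 and 0 without any block, 0 and 0 with the control set as a random block, and 0 and 0 in the paired fit that used the title number as a replicate block, which does not pair these arrays. In those fits feo after Sxl RNAi was at 0.50 (limma adjusted p = 0.664, 0.117 and 0.662). This difference cannot change with the block, because each control set and each title number holds 1 GFP and 1 Sxl RNAi array. Over all genes 1237 were called after Sxl RNAi in the fit reported, and 30, 402 and 0 in those fits. With both RNAs 454 genes were called, against 1, 35 and 1. With only genes above the expression limit 6 mitotic genes were called higher after Sxl RNAi, with Klp10A, tum and cid added. Of all 5991 genes in that fit, 1482 were called after Sxl RNAi, higher or lower. That fit used fewer genes both for the shared estimate of the spread and for the adjustment, and the part of each was not tested. Leaving out 1 array gave 1 to 4 such genes after Sxl RNAi and 0 to 2 with both RNAs, the latter being 1 without control set 2. None was called lower in any of these fits. Over all genes, the fits without 1 array called 514 to 1033 genes after Sxl RNAi, higher or lower.

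The X-linked minus autosomal median was 0.42 after Sxl RNAi, 0.31 without control set 2, and 0.31 to 0.47 without 1 array. With both RNAs it was -0.02, and 0.0522 without a block, 0.0771 with the title replicate block, 0.0665 with the random block, and -0.0709 to 0.0699 without 1 array. In Sxl RNAi against the double treatment it was 0.31, and 0.27 without a block, 0.25 with the title replicate block, 0.27 without control set 2, and 0.27 to 0.44 without 1 array. Under the title replicate block feo turned to -0.0205 in that comparison. The causes of these changes were not tested. Centring arrays on autosomal genes and averaging probe sets changed none of the counts of called mitotic genes by over 1.5 times. With 2 or 3 arrays in a group, 95% intervals of single autosomal genes reached from -0.38 to 0.75 with both RNAs.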
